A study of Homo sapiens with 4 samples.

Results

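Ubiquitin-specific peptidases (USPs) form the largest family of deubiquitinases, the enzymes that cut ubiquitin from proteins and so oppose the E3 ligases that attach it. USPs do so as cysteine proteases. They set the lifetime of many nuclear and signalling proteins, and in osteosarcoma cells such as U2OS the best studied is USP7, which removes ubiquitin from both p53 and its ligase MDM2. Here the mRNAs of the family were examined for antibody enrichment of N7-methylguanosine (m7G), the methylated base that forms the mRNA cap and that has also been mapped inside mRNA. Members were taken by name, as every gene whose symbol begins with USP followed by a digit. The gene table of the reference holds 77 such protein-coding genes among 20056, and 21 of them had a peak in at least 1 of the 2 peak tables. They carried 34 of the 9188 peaks, 15 in replicate 1 and 19 in replicate 2. The rule also takes in USP6NL, which despite its name encodes a GTPase-activating protein for RAB5 and not a peptidase, and 25 near-identical USP17L copies, none of which had a peak. That leaves 51 peptidase genes.

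The samples were untreated U2OS cells, an established human osteosarcoma line, with 2 input libraries and 2 libraries from m7G immunoprecipitation (IP) of poly(A) RNA. No group differed in genotype or treatment, so the only comparison is IP over input, which the authors made for each IP replicate. Every fold, p-value and false discovery rate below is the authors' own value for a peak, and the error of a fold is given as its value in both replicates. The tables give no read counts, so the depth behind a peak is unknown, and a gene without a peak is one with none past the authors' threshold. Nothing in the labels tells if the replicates came from separate cultures, so their spread may be technical. Of the markers fixed for the cell type, 3 of 6 mesenchymal and bone genes had overlapping peaks in both replicates (COL1A1, SPARC and VIM). The others, COL1A2 and the bone genes RUNX2 and ALPL, had no peak. Of 3 epithelial markers 1 had such peaks (KRT18, and not EPCAM or CDH1), and 0 of 3 haematopoietic markers did. Of all protein-coding genes, 10.5% had them, and these few markers do not settle cell identity. A peak is not a measure of expression.

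Peak blocks lay within 200 nt of an annotated start of 6 family genes, where the capped end of the mRNA lies, and their start sequences are shown for that reason. Each line runs 5′ to 3′ from 40 bases before the start, in lower case, to the first 30 transcribed bases, in capitals (RefSeq, GRCh38.p14).
USP6NL: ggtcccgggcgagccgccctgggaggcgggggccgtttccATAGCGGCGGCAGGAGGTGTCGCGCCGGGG
USP12: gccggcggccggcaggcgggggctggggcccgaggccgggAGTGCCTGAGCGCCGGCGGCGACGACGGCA
USP19: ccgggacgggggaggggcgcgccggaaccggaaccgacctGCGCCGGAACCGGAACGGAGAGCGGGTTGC
USP47: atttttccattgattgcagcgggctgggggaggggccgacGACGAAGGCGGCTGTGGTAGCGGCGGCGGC
USP32: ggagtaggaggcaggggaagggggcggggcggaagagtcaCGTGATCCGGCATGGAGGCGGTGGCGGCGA
USP21: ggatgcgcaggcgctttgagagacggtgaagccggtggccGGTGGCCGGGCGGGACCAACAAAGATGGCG
In order, these lie at chr10:11611621-11611690, chr13:27171782-27171851, chr3:49120794-49120863, chr11:11841932-11842001, chr17:60392104-60392173 and chr1:161159460-161159529, with USP47 and USP21 on the plus strand and the other 4 on the minus strand. A peak block covered the start itself in USP6NL, USP12 and USP19. The nearest block began 49 nt downstream of it in USP47, 57 nt in USP32 and 113 nt in USP21. The start peaks of USP19 (replicate 1) and of USP12 and USP21 (replicate 2) were listed in 1 replicate only.

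**Figure D1:**
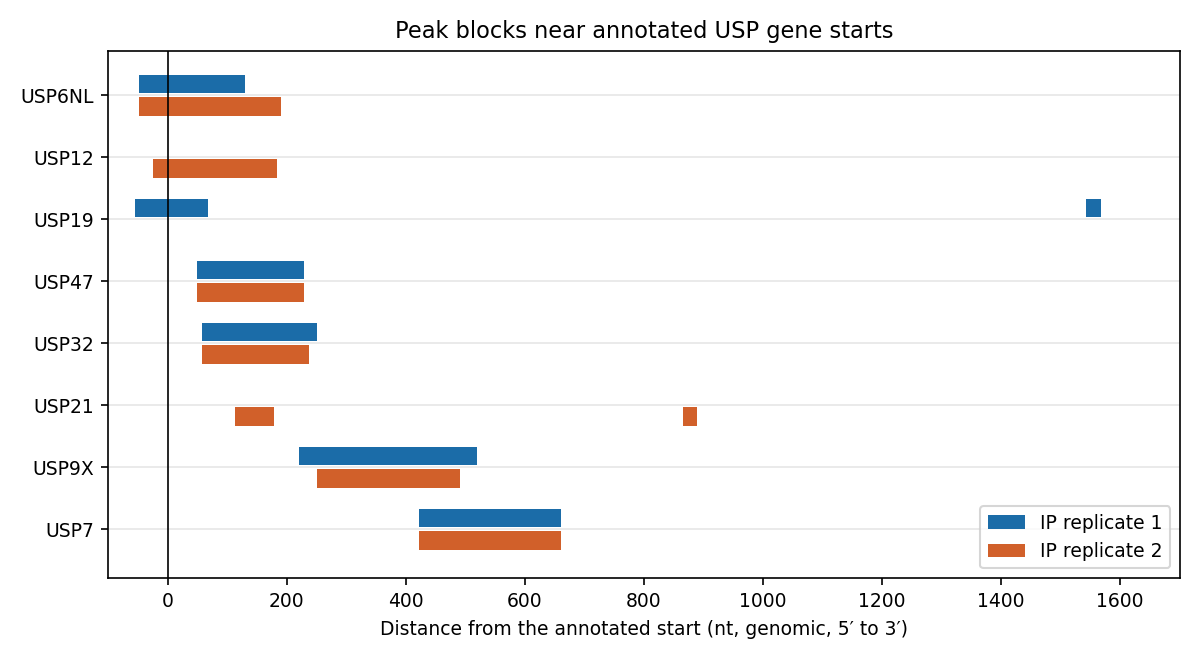
Peak blocks of 8 USP genes by genomic distance from the annotated start (x axis, nt, start at 0), with replicate 1 in blue above replicate 2 in orange; blocks further downstream are not drawn. Blocks cross the start in USP6NL, USP12 and USP19, and the USP7 blocks have the same edges in both replicates, from 422 nt onward; for USP32 the start is the one listed in the promoter table.

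All 6 starts were rich in G and C. Over the whole 300-base promoter windows (250 bases before the start and 50 after), their GC content ranged from 63.7% to 84.3% with a median of 72.0%, where the 54 listed windows of 40 USP genes had a median of 68.3% and the 22199 windows of protein-coding genes 62.3%. The GC-box hexamer GGGCGG, searched on both strands, was present in 5 of the 6 windows (all but USP47), in 72.2% of USP windows and in 56.3% of all windows. The TATA hexamer TATAAA, searched in the same way, was in 0 of the 6, in 5.56% of USP windows and in 9.47% of all. These are descriptions of sequence, and whether they bear on the peaks was not tested.

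A peak was found on 14 USP genes in replicate 1 (18.2% of 77) and on 16 in replicate 2 (20.8%), where 15.9% and 17.4% of all protein-coding genes had one. Counting a peak in either table, the 21 genes were 27.3% of the family, against 21.6% of all genes. A peak counted as shared when its blocks and those of a same-strand peak in the other replicate had at least 1 bp in common. By that rule 9 USP genes carried 10 shared peaks: USP7, USP32, USP35, USP47, USP6NL, USP9X (2 peaks), USP5, USP22 and USP11. These were 11.7% of the 77 genes, close to the background of 10.5%. Without the USP17L copies they were 17.3% of 52, and without USP6NL as well, 8 of 51 peptidases (15.7%). Among all protein-coding genes whose spans lay within the range of the USP genes with a peak (3075 to 245090 nt), 23.3% had a peak in either table and 11.3% a shared one. That range was set by genes with a peak and leaves out the shorter USP17L copies, so these shares are not matched to those of all 77 genes. The USP share within the range was not counted. Expression was not measured here, its part in these shares was not tested, and no test was made of the shares themselves.

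Every USP gene with a peak in both tables had a shared peak (9 of 9), as did 90% of all such genes. By peaks, 10 of 15 USP peaks in replicate 1 (66.7%) and 10 of 19 in replicate 2 (52.6%) were shared, against 62.6% and 55.9% of all peaks. On 6 USP genes (7.79% of 77) a shared peak reached 4-fold or more in each replicate, against 5.17% of all genes. The median of the lower fold of the 10 shared USP peaks was 6.93, and that of all 2642 shared peaks was 3.53. The median hides a wide range, since the USP values run from 1.75 to 16.1.

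**Figure D2:**
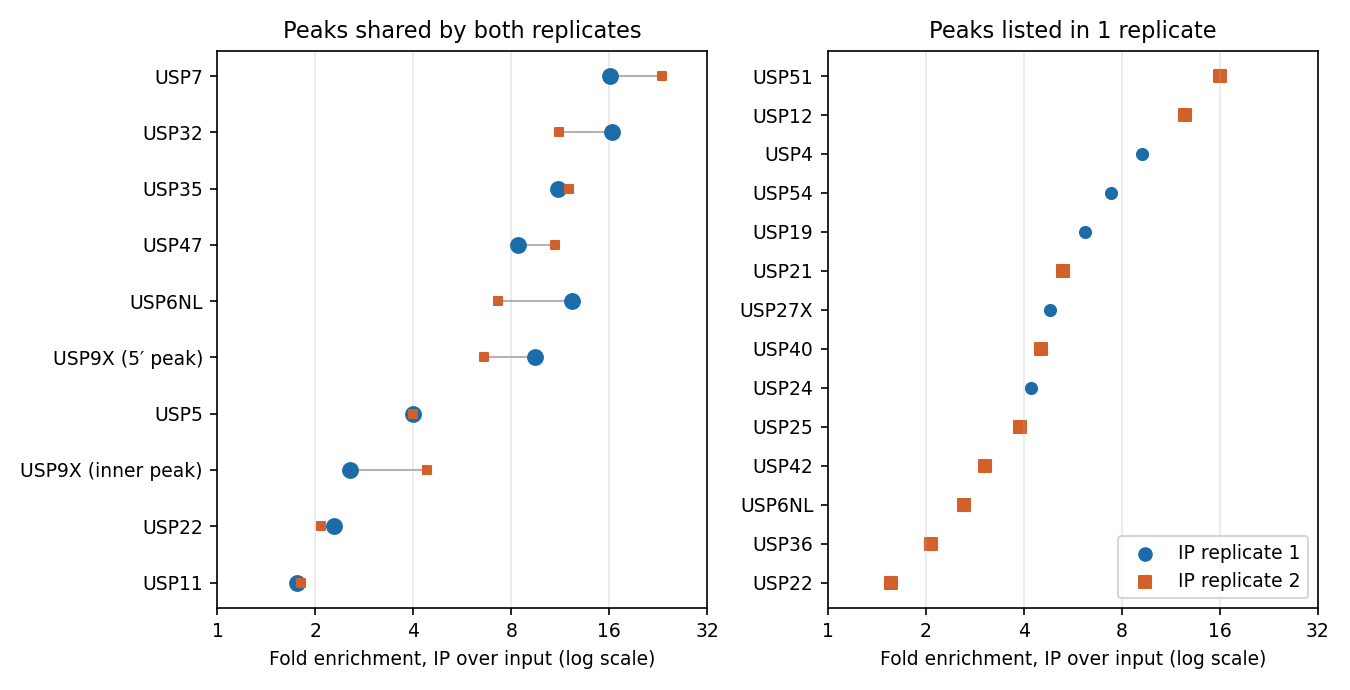
Fold enrichment of IP over input (x axis, log scale) for each USP peak; circles are replicate 1 and squares replicate 2, shared peaks on the left with a line joining the replicates, and peaks of 1 replicate on the right. By its lower fold USP7 is highest (16.1 and 23.3), with USP32 at 16.3 in replicate 1, USP11 lowest of the shared peaks at 1.75 and 1.81, and USP51 highest of the others at 16.

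USP7, the p53 and MDM2 deubiquitinase, had the strongest shared peak of the family by mean log2 fold and by the lower of both folds. In replicate 1 USP32 was marginally higher (16.3), and the ranges of these 2 genes overlapped. The USP7 fold was 16.1 in replicate 1 and 23.3 in replicate 2, a log2 difference of 0.53, and 72.7% of all shared peaks differed by less than that. The peak was 1 block of 240 nt with the same edges in both replicates, chr16:8963245-8963484 on the minus strand, and it began 422 nt inside the annotated start. By the lower fold of both replicates it ranked 105 among the 2101 protein-coding genes with a shared peak, and 96.0% of shared peaks were lower. The span of USP7-AS1, an antisense gene listed on the plus strand, also covers the peak. The libraries were made with a stranded kit, but whether peaks were called by strand is not stated. The part of USP7-AS1 in the peak was not tested. USP47, a related enzyme that acts on DNA polymerase beta in base excision repair, had 8.41 and 10.9. Its block was likewise identical in both replicates, chr11:11842021-11842200 on the plus strand.

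USP9X, a large X-linked deubiquitinase that stabilises the survival protein MCL1, was the only family member with more than 1 shared peak by the 1 bp rule. The stronger lay near the 5′ end, with folds of 9.43 and 6.58 and its first block edge 220 nt inside the annotated start in replicate 1 and 250 nt in replicate 2. The other lay 76.5% of the way along the gene span, with 2.56 and 4.42. It consisted of 2 blocks in both replicates, and their inner edges were the same in both, at positions 41198750 and 41201060 of chromosome X, while the blocks were longer in replicate 2 (84 and 126 nt) than in replicate 1 (24 and 66 nt). The log10 p of this peak was -4.17 in replicate 1 and -11.3 in replicate 2. The 5′ peak was higher in both replicates, and the ranges of the 2 peaks did not overlap.

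USP32 and USP35 came next to USP7 in fold. USP32, a membrane-bound enzyme that deubiquitinates RAB7 on endosomes, had 16.3 and 11.2. The 5′ edge of its peak lay at position 60392076 of chromosome 17 in both replicates, 57 nt downstream of the start listed in the promoter table. The gene span in the gene table, however, reaches 30340 nt further upstream than the peak. In replicate 1 the peak had a second block of 16 nt far downstream, from 60345593 to 60345608. USP32 has annotated pseudogene copies on the same chromosome, so its fold is uncertain. USP35 had 11.1 and 12 at chr11:78209835-78210104 in replicate 1 and chr11:78209894-78210134 in replicate 2, on the plus strand. That peak lay 43.6% of the way along the gene span in replicate 1, with its nearest edge 20916 nt from the start, so high folds in the family were found away from annotated starts too.

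USP6NL, the RAB5 GTPase-activating protein, had 12.3 and 7.27 at its start, where the span of USP6NL-AS1 also overlaps the peak. In both replicates the 5′ edge of the peak lay at position 11611699 of chromosome 10, 49 nt upstream of the annotated start. The difference of -0.76 on the log2 scale was the largest fall from replicate 1 to replicate 2 among the shared USP peaks. A second USP6NL peak, 2.62-fold, was listed in replicate 2 alone, 98.4% of the way along the gene span.

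USP5, also called isopeptidase T, takes apart free ubiquitin chains, and it had the most significant peak of the family at a modest fold. Its folds were 3.99 and 4, with log10 p of -30.7 and -44.1, against -17.6 and -30.8 for USP7. The peak began at position 6866124 of chromosome 12 in both replicates and ended 239 nt before the annotated gene end in replicate 1 and 61 nt before it in replicate 2. USP11, an enzyme of the DNA damage response, also had its peak near the gene end, with 1.75 and 1.81 and the same distance of 299 nt from the end in both replicates. USP22, the ubiquitin protease of the SAGA coactivator complex that acts on histone H2B, had 2.28 and 2.08. Its peak lay 3146 nt (replicate 1) and 3116 nt (replicate 2) before the gene end, and a further peak of 1.56-fold was listed in replicate 2 alone. With the inner USP9X peak, these were the 4 weakest shared peaks.

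**Figure D3:**
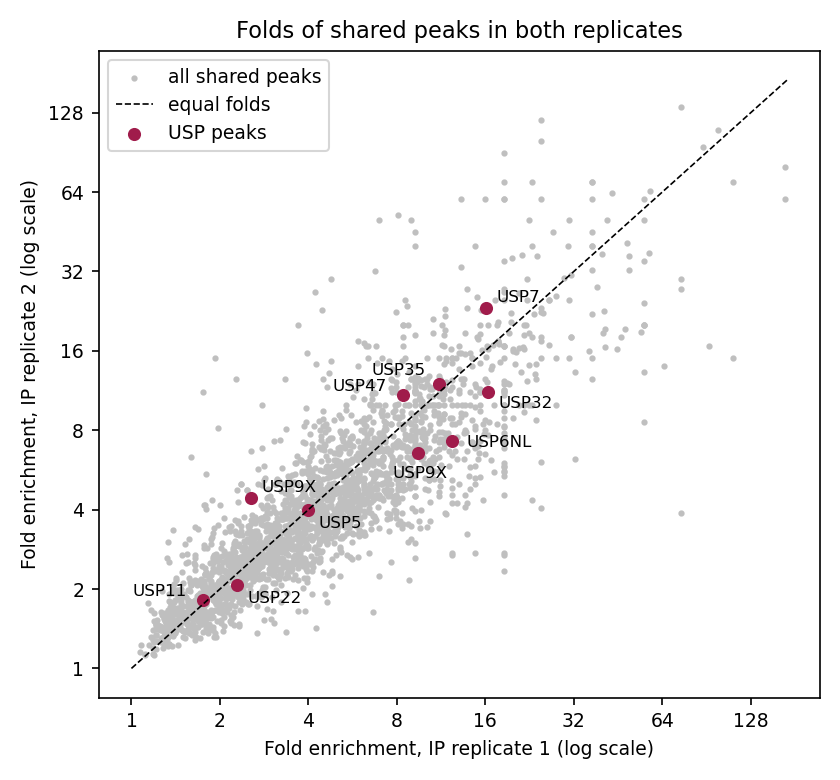
Fold enrichment of the 2642 shared peaks in replicate 1 (x axis) and replicate 2 (y axis), both on log scales, with the 10 USP peaks in dark red and equal folds as a dashed line. The USP peaks lie within the cloud of all shared peaks, 6 above the line and 4 below it.

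The replicates differed by a median of 0.45 on the log2 scale over the 10 shared USP peaks and by at most 0.79 (the inner USP9X peak). Over all shared peaks the median was 0.30, and 95% differed by less than 1.28. With only 2 replicates, neighbours in the order of mean log2 fold were compared by whether their ranges overlapped. They overlapped in 5 of 9 neighbouring pairs: USP7 with USP32, USP32 with USP35, USP47 with USP6NL, USP6NL with the 5′ USP9X peak, and USP5 with the inner USP9X peak. USP35 stood above USP47, the 5′ USP9X peak above USP5, the inner USP9X peak above USP22, and USP22 above USP11 without overlap. This holds for neighbours only: the range of USP6NL (7.27 to 12.3), lower in the order than USP47, held that of USP35 (11.1 to 12). The 6 strongest peaks were all at or above 6.58 in both replicates, and the other 4 at or below 4.42.

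By position, 3 of the 10 shared USP peaks (USP6NL, USP47 and USP32) had a block within 200 nt of a listed start in both replicates, 2 (USP5 and USP11) lay within 1000 nt of the gene end, and 5 lay elsewhere. Of all shared peaks, 36.1% were of the first kind and 16.8% of the second. Measured instead from the midpoint to the outermost annotated start, 2 of the 10 were within 200 nt, against 22.6% of all shared peaks. The lower folds of the 3 start peaks ran from 7.27 to 11.2 (median of all start peaks 4.52), and those of the 2 end peaks were 1.75 and 3.99 (median of all end peaks 2.87). The lower folds of the 5 peaks elsewhere ran from 2.08 in USP22 to 16.1 in USP7. USP7 and the 5′ peak of USP9X fell in this class because their nearest edges lay 422 and 220 nt inside the start in replicate 1. Counting unshared peaks too, 4 of 15 USP peaks in replicate 1 and 5 of 19 in replicate 2 were start peaks, against 34.3% and 30.3% of all. End peaks were 5 of 15 and 2 of 19, against 16.9% and 18.3%.

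**Figure D4:**
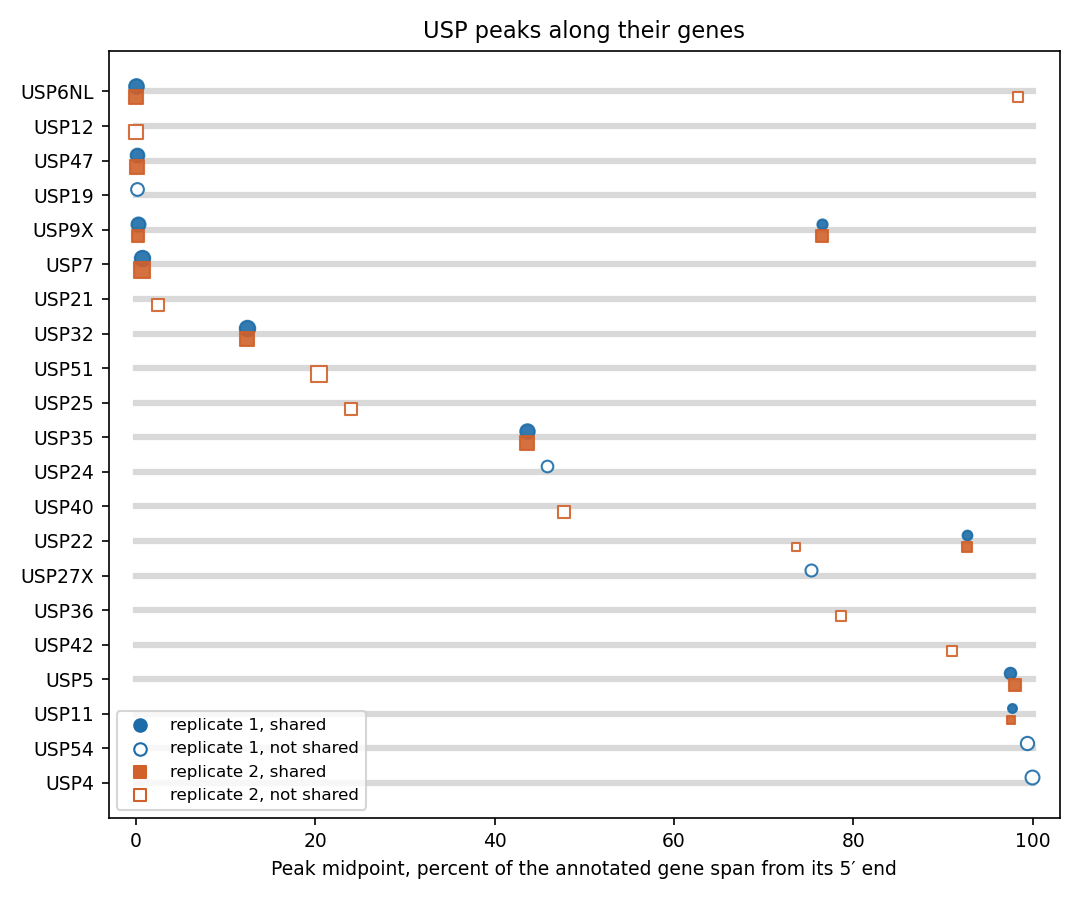
Midpoint of each USP peak along its annotated gene span (x axis, percent from the 5′ end); filled symbols are shared peaks, open symbols peaks of 1 replicate, circles replicate 1, squares replicate 2, and larger symbols have higher folds. The shared peaks of USP6NL, USP47 and USP7 and the 5′ USP9X peak lie near the 5′ end. Those of USP22, USP5 and USP11 lie past 90% of the span, with USP32, USP35 and the inner USP9X peak between. The annotated USP32 span begins 30340 nt upstream of its peak.

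A further 12 family genes had a peak in 1 replicate alone. In the family, 21 of 77 genes had a peak in either table and 9 in both. Among all 20056 protein-coding genes, 4340 had one in either and 2334 in both. In replicate 1 these were USP4 (9.25), USP54 (7.40), USP19 (6.17), USP27X (4.80) and USP24 (4.21). In replicate 2 they were USP51 (16), USP12 (12.5), USP21 (5.29), USP40 (4.52), USP25 (3.89), USP42 (3.03) and USP36 (2.08). The tables hold only peaks past the authors' threshold, so the fold at the same place in the other replicate is not known. The peak named for USP4 needs care, because it covers the listed start of C3orf62 at position 49277232 of chromosome 3 on the same strand. It lies 60 nt from the end of USP4, and the genes cannot be told apart there. The USP54 peak also overlaps the span of PPP3CB-AS1.

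The log10 p of the shared USP peaks ran from -4.17 to -30.7 in replicate 1 and from -5.70 to -44.1 in replicate 2. That of the unshared ones ran from -3.52 to -6.54 and from -3.37 to -7.02, so the ranges overlapped at the weaker end and the most significant USP peaks were shared ones. High fold did not go with high significance in each case: USP51 at 16 and USP12 at 12.5 had log10 p of -5.54 and -5.25, while USP22 at 2.08 had -13.3. Unshared USP peaks were of more than 1 block in 2 of 5 cases in replicate 1 (USP19 and USP24) and in 5 of 9 in replicate 2 (USP21, USP25, USP36, USP40 and the second USP22 peak). Shared ones were so in 2 of 10 and 1 of 10. Of all USP peaks, 4 of 15 in replicate 1 (26.7%) and 6 of 19 in replicate 2 (31.6%) had more than 1 block. Among the peaks of all genes the shares were 30.8% and 34.7%. The difference between shared and unshared USP peaks rests on these small counts and was not tested.

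**Figure D5:**
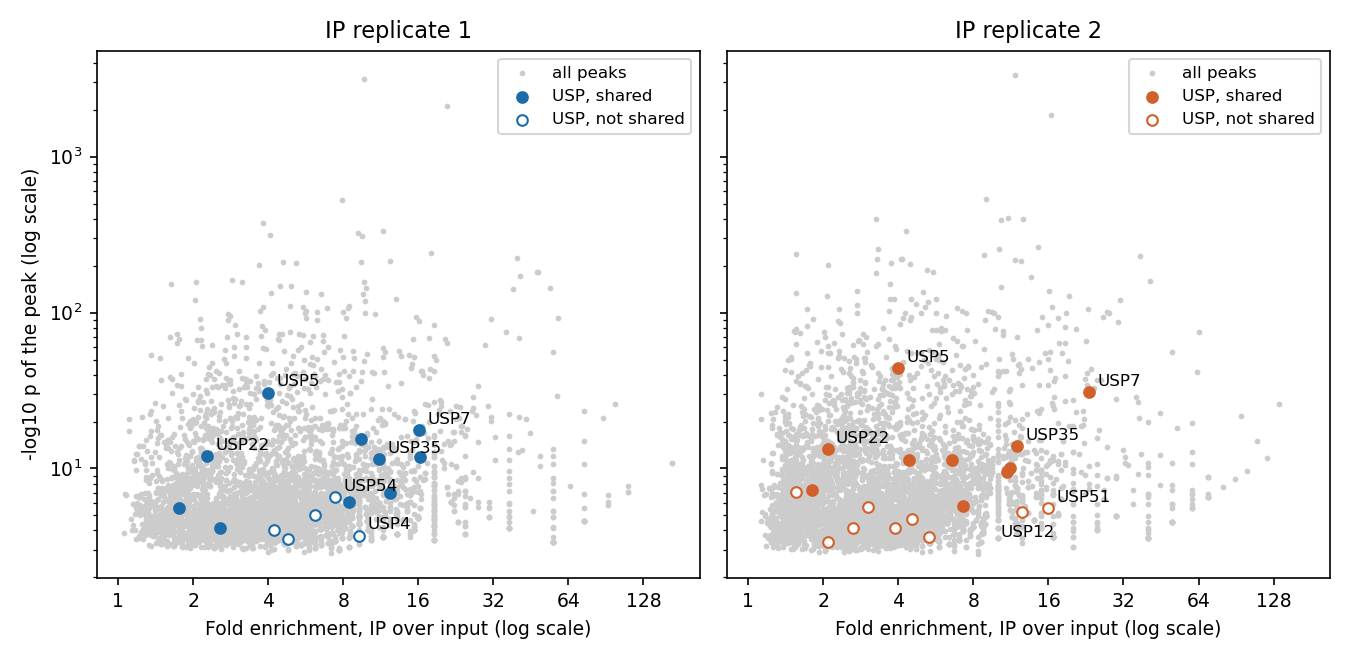
Fold enrichment (x axis, log scale) against -log10 p (y axis, log scale) of every peak in replicate 1 and replicate 2, with USP peaks coloured, filled where shared and open where not. USP5 has the highest -log10 p of the family at a fold near 4, and the open symbols of USP51 and USP12 lie at high fold and low -log10 p.

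Among close relatives, peaks were listed for some members and not for others. USP22 and its paralogues USP27X and USP51, which can all join the ATXN7L3 and ENY2 adaptor proteins, each had a peak, shared in USP22 and in 1 replicate in the other 2. Of the USP4, USP11 and USP15 trio, USP11 had a shared peak, USP4 the ambiguous one described above and USP15 none. USP12, which is activated by WDR48 and WDR20, had a peak at its start in replicate 2, and its paralogue USP46 and the related USP1 had none. USP12 also has annotated pseudogenes, which makes its value uncertain. USP25 and the p53-linked USP42 had peaks in replicate 2, as did USP36, the nucleolar relative of USP42, and USP28, the relative of USP25, had none. USP5 had a shared peak and its paralogue USP13 had none. No peak was listed for 31 family genes besides the USP17L copies, among them USP8 of endosomes, USP10, the partner of G3BP1, USP14 of the proteasome and USP39 of the spliceosome. Relatives were grouped after their values had been seen.

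A list of 45 deubiquitinases and related genes outside the USP names had a shared peak on 7 (15.6%). This stands beside 8 of 51 USP peptidases and the background of 10.5%. Not every gene of the list is an active deubiquitinase, so the share describes the list and not the enzymes. The group of zinc-dependent JAMM proteases and related subunits had 4 of 12, led by MPND (11.2 and 11.3). Next came the related subunits COPS6 of the COP9 signalosome (6.79 and 3.66) and PSMD7 of the proteasome lid (1.98 and 2.58). BAP1, the nuclear deubiquitinase of histone H2A, was the 1 of 4 UCH members (11.0 and 10.0). OTUD1 was the 1 of 16 OTU members (9.25 and 3.94), and PAN2, the deadenylase subunit with a USP-like fold, the 1 of 3 in its group (5.78 and 3.70). The Josephin (0 of 4) and MINDY and ZUP1 (0 of 6) groups had none. The USP7 peak was above each of these in both replicates.

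Of 12 partner proteins of the family, 1 had a shared peak (8.33%, near the background of 10.5%). It was G3BP1, which binds USP10 (1.72 and 1.48), while the USP22 adaptors ATXN7 (7), ATXN7L3 (2.01) and ENY2 (1.61) had peaks in replicate 2 alone. SART3 had a peak in replicate 1 alone (2.59), and G3BP2 had unshared peaks in both replicates (1.66 and 1.93). Among USP7 substrates, the checkpoint adaptor CLSPN had a shared peak (2.29 and 3.23). MDM2 had a peak in replicate 1 alone (4.44) and MDM4 in replicate 2 alone (5.71). None of the 4 ubiquitin precursor genes had a peak in either replicate, where 21.6% of all protein-coding genes had one. With 4 genes, no difference from that share can be read.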

How the data were processed

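Peaks were taken from 1 deposited table for each IP replicate; per the submitters' processing notes the build was GRCh38 and STAR was used, with no peak caller named. Per the file headers, the authors deposited for every peak a p-value, the log10 of it and of the false discovery rate (treated as a score), plus the ratio of IP to input as a fold, whose scaling was not stated. No peak had a false discovery rate above 0.0490 in replicate 1 or 0.0479 in replicate 2.

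Names were matched to the RefSeq table (GRCh38.p14) by symbol, or by synonym within 2000 nt; all 34 USP peaks matched by symbol. Shared peaks are mutually best overlaps. Distances run from block edges, or from the midpoint of the joined blocks where stated, to annotated starts (gene table and promoter table) and ends. No replicated groups exist to test, so values, counts and backgrounds are given. Every USP gene with a peak is named, and up to 3 genes of each other list by the lower fold of both replicates. Partner proteins with unshared peaks, MDM2 and MDM4 are named outside that rule. Unshared peaks of other list members are not given. Members and lists were chosen with earlier results of these data known. The overlap search was tested on simulated data. Alternatives were other overlaps, thresholds, distances, symbols and denominators, and each replicate left out. One gene of the USP7 substrate list is not reported here. The bases under the peaks, exons and UTRs were not analysed here. Scripts ran in Python 3.11.15 (pandas 2.3.3, numpy 2.4.6, matplotlib 3.10.9, scipy 1.17.1).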

Additional observations from a re-analysis of the deposited data

How the results depend on the processing

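The 9 USP genes with a shared peak were the same 9 under 50% reciprocal overlap and with midpoints within 100 nt. They were also the same with a false discovery rate at or under 0.001 and after matching synonyms. The 10 shared USP peaks fell to 9 under the reciprocal overlap and under the stricter false discovery rate. The peak lost each time was the inner USP9X peak. A fold of at least 2 removed USP11, and a fold of at least 4 removed USP5, USP11 and USP22, which raised the log2 of the median lower fold from 2.79 to 3.29 over the 6 peaks left. With all peaks of a single replicate, the count of genes was 14 to 16 and the log2 median fold 2.18 to 2.89, and peaks with a midpoint near the gene start numbered 3 to 4; such counts include peaks never matched in the other replicate. Within 100 nt of the gene start, 1 shared peak remained in place of 2. Genes of the other lists with a shared peak numbered 10, with 6 at the stricter false discovery rate, 4 at a fold of at least 4 and 17 to 19 in a single replicate, alternatives chosen after seeing the data. No paired analysis was possible because input values enter only through the deposited folds. Depth is unknown, so no limit can be set for genes without a peak.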
